A study of Drosophila melanogaster with 30 samples.

Results

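The 47 genes described here encode subunits of the fruit fly proteasome. They are every gene in the table of 17559 Drosophila melanogaster genes whose name begins with Prosalpha, Prosbeta, Rpn or Rpt followed by a digit. Of the 47, 7 encode the alpha ring, 7 the beta ring, 10 the base and 8 the lid, which gives 32 constitutive genes. The other 15 are copies of 11 of these subunits, named by adding T or R to the subunit's name, with a number where there are several. Poly(A)-selected RNA was sequenced from single male flies of the Cantonized w1118 laboratory line, which has white eyes, after their sleep had been recorded; the labels give a total RNA extraction but also call the libraries nuclear, and which holds is not settled in the sources used here. Aged SF flies were 25 days old with fragmented sleep, aged NSF flies were 25 days old with normal sleep, and young flies were 5 days old with normal sleep; no group received a treatment. Body and head were extracted from single flies, with 5 libraries in each of the 6 groups and 30 in all, and flies were kept at 25 °C, 60% humidity and 12 h light and 12 h dark. The sleep state was observed in each fly and not imposed, so it cannot be told apart from anything else in which fragmented and normal sleepers differ.

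The proteasome degrades proteins that carry ubiquitin chains. Its core particle is a barrel of stacked rings: outer alpha rings gate the entrance, and inner beta rings hold the proteolytic sites, of which Prosbeta1, Prosbeta2 and Prosbeta5 carry the catalytic ones. The regulatory particle sits on the barrel, with a base of Rpt ATPases that unfold substrates, Rpn1 and Rpn2 scaffolds and the ubiquitin receptors Rpn10 and Rpn13, and a lid that includes the deubiquitinase Rpn11. In animals, subunit genes are often expressed together, and in flies the transcription factor encoded by cnc can raise them. Drosophila males also transcribe duplicate subunit genes in the testis, where some, such as Prosalpha6T, are needed to make sperm.

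Libraries held 2458538 to 8060238 reads on genes in bodies and 1685034 to 3597530 in heads. A count of 3 reads, taken here as the floor, corresponds to 0.372 to 1.22 CPM (read counts scaled to the library total) in bodies and 0.834 to 1.78 CPM in heads, which covers counting error only. Aged NSF body 1 had a summed level of 27 testis marker genes of 960 CPM, against 6940 to 9561 CPM in the other aged NSF bodies, and aged NSF body 2 had 818.7 CPM of photoreceptor markers, against 45.7 to 99.6 CPM in the other bodies. Counts of members called in bodies are given with and without these libraries. Nothing in the labels says how separate single flies were reared, so p-values measure the spread between these libraries. In whole bodies and heads, fewer cells of a type and less RNA per cell cannot be told apart. Every testis marker had reads in bodies, whereas in heads aly had none.

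All 47 genes were found in the Ensembl annotation of the BDGP6 (dm6) genome. The 32 constitutive genes lie on arms 2L (4), 2R (10), 3L (5) and 3R (9) and on X (4), and the 15 copies on 2L (4), 2R (2), 3L (2), 3R (5) and X (2). Over 1% of the exonic sequence of 14 members overlaps another gene, at most 12.96% for Rpt6, which overlaps CG1801 on the opposite strand. Reads in such stretches may be lost or given to the other gene. Prosalpha1 had 0 to 17 reads per library and its near-identical neighbour CG30382 at most 17, with equal counts in 18 of 30 libraries and counts within 1 read in 27. Levels of Prosalpha1 are therefore uncertain and it is left out of the comparisons of level per kilobase, but not of sums and counts over the 32 genes. It was too low to test in heads.

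Per kilobase of exon, the median alpha and beta ring gene stood above the median base and lid gene in all 6 groups. Among aged SF bodies the median gene had 140 CPM per kb in the alpha ring, 154 in the beta ring, 78.1 in the base and 72.3 in the lid. The same medians in aged NSF bodies were 162, 179, 89.98 and 89.6 CPM per kb, and in young bodies 150.4, 161, 76.9 and 73.0 CPM per kb. In heads the medians were 82.4, 98.9, 65.3 and 55.2 CPM per kb in the aged SF group, 85.8, 115.3, 72.6 and 54.7 in the aged NSF group, and 70.9, 90.3, 65.3 and 44.4 in the young group.

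The 31 remaining constitutive genes spanned a narrow range of levels. The highest of them was 3.38-fold above the lowest in aged SF bodies, 3.89-fold in aged NSF bodies and 4.22-fold in young bodies, and 3.21-fold, 3.69-fold and 3.63-fold in the same order in heads. Prosalpha2 led aged SF bodies with 175 ± 17.4 CPM per kb (SD, n = 5), followed by Prosalpha3 with 167 ± 17.4. Prosbeta1 led aged NSF bodies with 219.7 ± 45.9 and young bodies with 197 ± 36.0 CPM per kb. These leaders did not stand apart from the next gene by more than their spread. The lowest constitutive gene was Rpn1 in both aged bodies, at 51.9 CPM per kb in the SF and 56.5 in the NSF group, and Rpt3 in young bodies at 46.7.

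**Figure D1:**
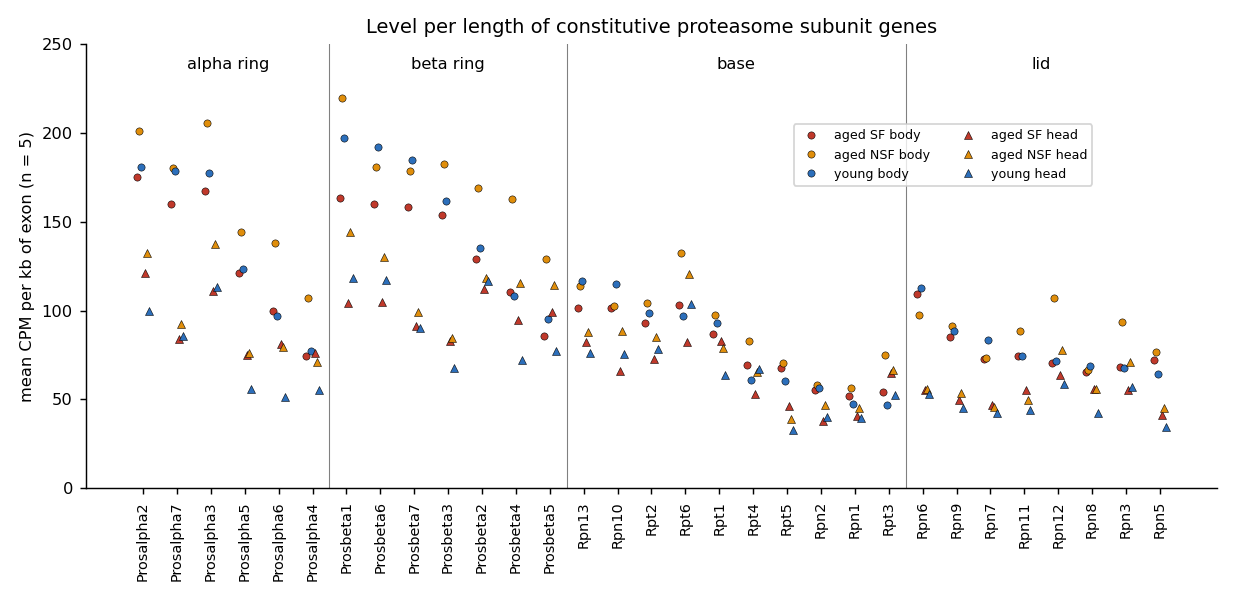
Mean CPM per kb of exon (vertical axis, n = 5) of the 31 constitutive genes other than Prosalpha1, in the alpha ring, beta ring, base and lid; circles are bodies, triangles are heads, and colours are the aged SF, aged NSF and young groups. The alpha and beta rings hold the highest points, up to 219.7 for Prosbeta1 in aged NSF bodies.

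Summed over the 32 constitutive genes, the level was 4095 ± 245 CPM in aged SF bodies, 4808 ± 519 CPM in aged NSF bodies and 4271 ± 310 CPM in young bodies (SD, n = 5 each). The aged NSF bodies had 4181, 4321, 5052, 5180 and 5308 CPM; the 2 lowest of these are from the libraries that stood apart in marker genes, 1 and 2, and lie inside the range of the other groups, 3783 to 4359 CPM in aged SF and 3928 to 4670 CPM in young bodies. Bodies 3 to 5 alone averaged 5180 ± 128 CPM. In heads the sum was 2975 ± 152 CPM in the aged SF group, 3338 ± 299 in the aged NSF group and 2786 ± 556 in the young group, with overlap between all 3. The aged NSF group had the highest mean for 25 of 32 constitutive genes in bodies and 24 of 32 in heads. The same tally was not made over all genes, so these counts have no background beside them.

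**Figure D2:**
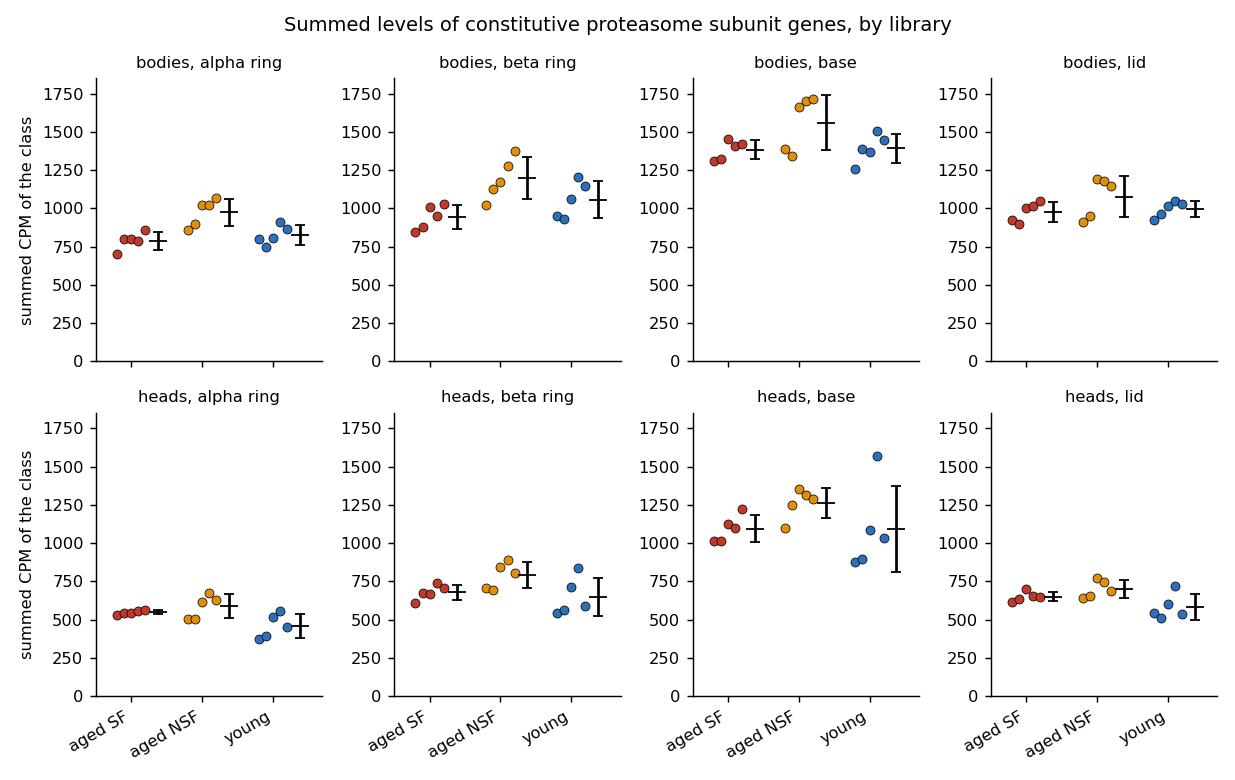
Summed CPM of the alpha ring, beta ring, base and lid (vertical axes) in aged SF, aged NSF and young bodies (top) and heads (bottom); each point is 1 library, and the bars are the mean and SD of 5. Aged NSF bodies 3 to 5 lie above all other bodies in the alpha ring, base and lid, and young head 4 lies apart in the base.

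In bodies of aged normal sleepers, 9 of 32 constitutive genes rose relative to young bodies and none fell, while 13 of the 15 copies fell. This comparison asks what differs with age among flies that sleep normally. Calls here and below are from the quasi-likelihood test of edgeR at a Benjamini-Hochberg adjusted p under 0.05 over all genes tested. Of 12009 genes tested in bodies, 21.7% rose and 19.4% fell in this comparison. The share of constitutive genes that rose, 28.1%, is near that background, whereas 86.67% of the copies fell. The median log2 fold change was 0.22 over the constitutive genes, from -0.21 for Rpn6 to 0.85 for Prosalpha1, and 0.03 over all genes.

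The 9 genes came from every part of the particle. Prosalpha4 and Prosalpha6 are in the alpha ring, Prosbeta4 and the chymotrypsin-like catalytic subunit Prosbeta5 in the beta ring, Rpt3, Rpt4 and Rpt6 among the base ATPases, and Rpn3 and Rpn12 in the lid. Rpt3, at X:11125101-11126785 on the plus strand, had 102, 107, 128, 134 and 112 CPM in aged NSF bodies 1 to 5, against 86.7, 74.8, 68.8, 63.5 and 68.9 CPM in young bodies. Every aged NSF body was above every young body. The log2 fold change of Rpt3 was 0.68 ± 0.13 (SE), adjusted p = 0.00121 by edgeR.

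Prosalpha6, at 2L:10221351-10222546 on the plus strand, is an alpha ring subunit with a testis copy. It had 156, 122.5, 162.5, 140 and 159 CPM in aged NSF bodies, against 114.99, 91.7, 106, 101 and 104 CPM in young bodies, again without overlap. Its log2 fold change was 0.51 ± 0.12 (adjusted p = 0.00403, edgeR). Prosbeta4, at 2L:16731180-16732133 on the minus strand, is a non-catalytic beta ring subunit. Its levels were 132, 109, 135, 134 and 152 CPM in aged NSF bodies, against 107.6, 76.7, 79.6, 93.7 and 83.5 CPM in young bodies. The lowest aged NSF body was just above the highest young body, and the log2 fold change was 0.59 ± 0.14 (adjusted p = 0.00458, edgeR).

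The other called genes had smaller or less certain changes. Rpn12 rose by 0.59 ± 0.15, Rpt4 by 0.45 ± 0.11, Rpn3 by 0.47 ± 0.13, Prosalpha4 by 0.47 ± 0.13, Prosbeta5 by 0.44 ± 0.15 and Rpt6 by 0.45 ± 0.16 on the log2 scale, with edgeR adjusted p from 0.00635 for Rpn12 to 0.0319 for Rpt6. Of 15 fits without 1 library, Rpt6 kept its call in 10 and Prosbeta5 in 14. For 8 of the 9, all but Rpt6, every aged NSF body was above every young body. These are 25.0% of the constitutive genes, against 14% of all genes tested. The catalytic subunit Prosbeta2 had a log2 fold change of 0.32 ± 0.15 (adjusted p = 0.0876) and the ubiquitin receptor Rpn13 one of -0.03 ± 0.14 (adjusted p = 0.885). With aged NSF bodies 1 and 2 left out, 11 constitutive genes rose and the median over the constitutive genes was 0.33. That fit called 2446 of all genes higher and 2567 lower, with an all-gene median of 0.02. Summed muscle markers were lower in these aged bodies, 2950 to 4473 CPM against 5412 to 6423 CPM in young bodies, with 5 of 7 markers called lower. Of the other lists, 2 of 6 neuron markers were called higher, 1 of 14 accessory gland markers higher and 1 lower, and 6 of 8 photoreceptor markers higher. Without aged NSF body 2, the summed photoreceptor markers were 73.1 to 99.6 CPM in aged NSF bodies, against 45.7 to 73.6 CPM in young bodies. Their part in the result was not tested.

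No proteasome gene was called in bodies of aged fragmented sleepers relative to the same young bodies. By edgeR, 11.1% of all genes rose and 3.26% fell. The 0 of 47 lies below the share that rose and is near the share that fell. DESeq2 called 1 member, with 1365 of all genes higher and 779 lower. At an unadjusted p under 0.05 there were 1 member and 3396 genes. With only the 2 groups in the fit, 7 copies and 1732 of all genes were called lower. Without aged NSF bodies 1 and 2, 7 copies and 1765 of all genes were called lower. The split of all calls depended on scaling, with 1336 genes higher and 391 lower under TMM scaling but 977 higher and 489 lower under the size factors of DESeq2. The gene with the smallest p was Prosbeta6, a non-catalytic beta ring subunit, with 131, 155, 167, 144 and 158 CPM in aged SF bodies, against 166, 175, 189, 191 and 186 CPM in young bodies. Only the highest aged SF body reached the lowest young one. On the log2 scale its change was -0.26 ± 0.12, adjusted p = 0.142 by edgeR, and -0.34 with adjusted p = 0.00681 by DESeq2. The median log2 fold change was 0.02 over all genes and -0.06 over the constitutive genes. Among them only Rpt4 had every aged SF body above every young body, 3.12% of the genes against 9.12% of all genes tested. Summed muscle markers were lower in these aged bodies too, at 1967 to 3047 CPM, with 5 of 7 called lower. Of the other lists, 2 of 2 hemocyte and 2 of 14 accessory gland markers were called lower and 1 of 6 neuron markers higher, and their part was not tested.

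Between the aged bodies, fragmented against normal sleepers, edgeR called none of the 12009 genes in either direction, a background of 0%. At an unadjusted p under 0.05 there were 2086 genes and 13 members, and DESeq2 called 202 genes higher, 438 lower and 7 members, all constitutive and lower. Aged NSF bodies stand in both this comparison and that of aged NSF with young bodies, so the calls of one are not independent of the other. The log2 fold changes were negative for 31 of 32 constitutive genes, with a median of -0.22. Over all genes tested, 6228 of 12009 were positive and the median was 0.02. Rpn12, a lid subunit at 3L:16583028-16584022 on the plus strand, had the smallest p of the members. It had 66.9, 64.0, 73.1, 69.5 and 77.7 CPM in aged SF bodies, against 97.8, 94.6, 109, 108 and 124 CPM in aged NSF bodies, with no overlap. The estimated log2 fold change was -0.60 ± 0.15, adjusted p = 0.0865 by edgeR.

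Prosbeta5, the chymotrypsin-like subunit, had 80.05, 82.3, 90.8, 117 and 119 CPM in aged SF bodies, against 137, 135, 132.5, 159 and 170 CPM in aged NSF bodies. A log2 fold change of -0.59 ± 0.15 had an adjusted p of 0.0867, which Prosbeta4 (-0.56 ± 0.14) and Prosalpha4 (-0.53 ± 0.13) shared. In all, 6 constitutive genes (Prosalpha6, Prosbeta2, Prosbeta4, Prosbeta5, Rpn12 and Rpt3) had every aged SF body below every aged NSF body. They are 18.8% of the class, against 3.03% of all genes tested. Without aged NSF body 1, edgeR called 4 members, with Rpn12, Prosbeta4 and Prosbeta5 lower and the copy Rpt4R higher in aged SF bodies. The all-gene calls of that fit are not given here, so this count cannot be set against the 0% of the main fit. Without aged NSF bodies 1 and 2 edgeR again called 4, all of them lower: Rpn12, Prosbeta4, Prosbeta5 and Rpn3. That fit called 105 of all genes higher and 100 lower, so its count of 4 does not stand against a background of 0%.

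**Figure D3:**
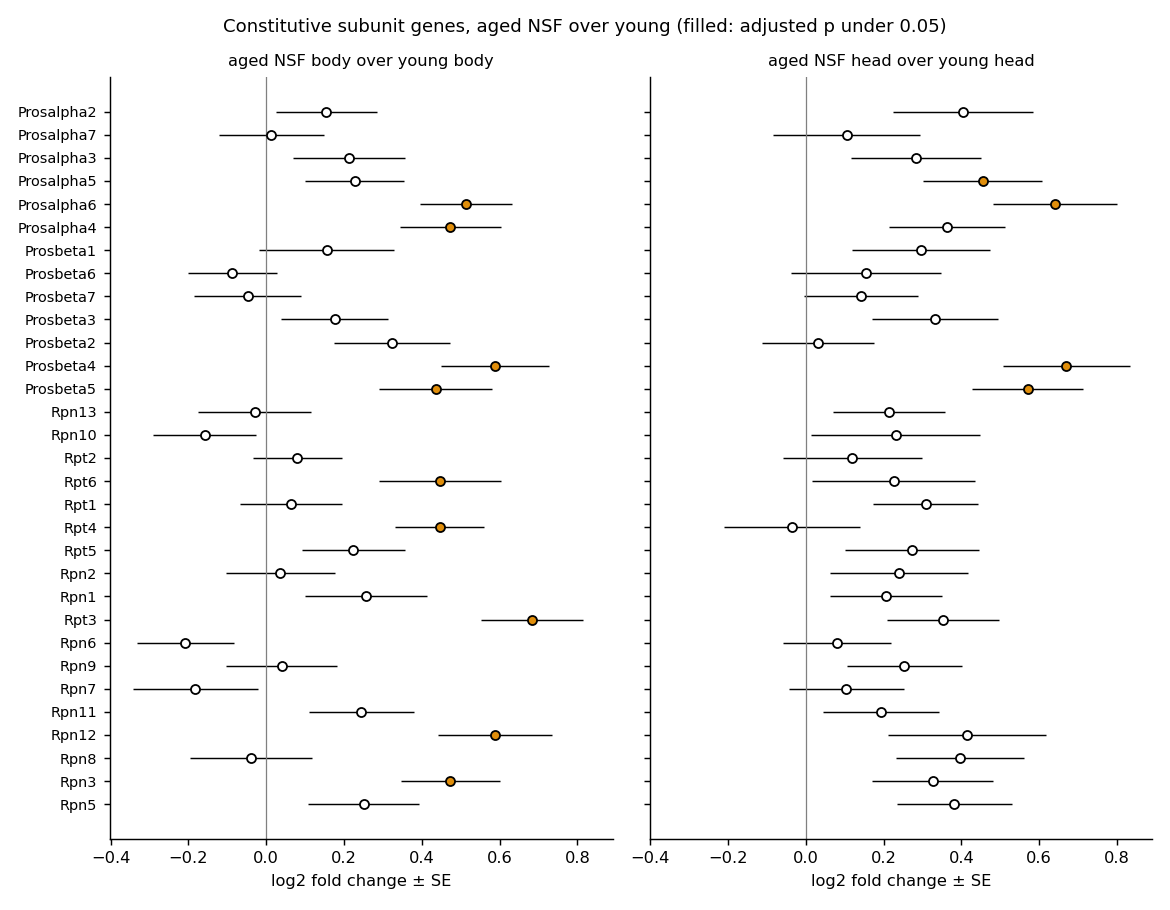
Log2 fold change with its SE (edgeR, horizontal axes) of the 31 constitutive genes other than Prosalpha1 in aged NSF over young bodies (left) and heads (right); filled points have an adjusted p under 0.05. The filled points are 9 genes in bodies and 4 in heads, and all of them lie right of 0.

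In heads, 33 members were tested, the 31 constitutive genes other than Prosalpha1 and the copies Rpt4R and Rpn13R. In heads of aged normal sleepers, 4 constitutive genes rose relative to young heads and none fell. These are 12.9% of the class, near the background of 11.4% of 9088 genes that rose (11.5% fell). The median log2 fold change of the class was 0.27, against 0.02 over all genes. In the class 30 of 31 were positive, against 4669 of 9088 over all genes. The count of calls was sensitive to single libraries: without young head 4 it was 12, and without aged NSF head 1 it was 7. All-gene counts for these fits are not given here, so 12 and 7 cannot be set against a background of their own. Muscle markers were lower here as well, with sums of 1602 to 1936 CPM in aged NSF heads and 3091 to 4197 CPM in young heads and 6 of 6 called lower, and 6 of 13 photoreceptor markers were called lower and 1 higher, with 2 of 6 neuron and 1 of 2 hemocyte markers lower; their part was not tested.

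Prosbeta4 had the smallest adjusted p. It had 101.5, 66.5, 109.8, 105 and 86.8 CPM in aged NSF heads, against 56.7, 68.1, 49.0, 64.0 and 56.8 CPM in young heads. Aged NSF head 2 fell inside the young range and the other 4 lay above it. The log2 fold change was 0.67 ± 0.16 (adjusted p = 0.00316, edgeR). Prosalpha6 had 83.9, 89.95, 79.3, 107 and 64.2 CPM in aged NSF heads, against 54.0, 44.8, 45.2, 70.1 and 59.3 CPM in young heads, where only aged NSF head 5 and young head 4 overlapped. Its log2 fold change was 0.64 ± 0.16 (adjusted p = 0.00379).

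Prosbeta5 was the 1 constitutive gene, 3.23% of the class, with every aged NSF head above every young head, against 7.87% of all genes tested. It had 112, 123, 110, 150 and 155 CPM in aged NSF heads, against 72.9, 99.1, 105, 88.7 and 72.8 CPM in young heads. On the log2 scale its change was 0.57 ± 0.14 (adjusted p = 0.00426, edgeR). The alpha ring gene Prosalpha5 rose by 0.45 ± 0.15 (adjusted p = 0.031). Prosalpha6, Prosbeta4 and Prosbeta5 were thus called higher in aged normal sleepers in both tissues, 3 of the 4 genes called in heads and 3 of the 9 called in bodies. Of all genes tested, 11.4% were called higher in heads and 21.7% in bodies. The share of all genes called higher in both tissues was not computed, so this overlap cannot be set against it.

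In heads of aged fragmented sleepers, 5 constitutive genes rose relative to young heads and none fell. They are 16.13% of the class, against 13% of all genes tested that rose and 12.2% that fell. The class median was 0.12, with 20 of 31 log2 fold changes positive. Over all genes the median was -0.003, with 4531 of 9088 positive. Prosalpha6 had 83.7, 75.9, 91.0, 88.0 and 94.0 CPM in aged SF heads, against 54.0, 44.8, 45.2, 70.1 and 59.3 CPM in young heads, with no overlap. The estimated log2 fold change was 0.66 ± 0.16, adjusted p = 0.00267 by edgeR. Prosalpha4, another gene of the alpha ring, had 81.7, 104, 100, 80.5 and 79.9 CPM in aged SF heads, against 65.0, 54.5, 87.1, 66.5 and 53.2 CPM in young heads. Young head 3 lay above 3 of the aged SF heads, and the log2 fold change was 0.46 ± 0.15 (adjusted p = 0.0245). The call of Prosalpha4 was kept in 11 of 15 fits without 1 library.

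The base ATPase Rpt5 had 72.4, 55.2, 94.1, 79.7 and 76.8 CPM in aged SF heads, against 45.7, 48.2, 56.1, 62.998 and 51.9 CPM in young heads, where aged SF head 2 fell inside the young range. Its log2 fold change was 0.52 ± 0.17, with adjusted p = 0.0271 by edgeR, a call kept in 10 of 15 fits without 1 library. Prosalpha5 rose by 0.43 ± 0.15 and Rpt1 by 0.38 ± 0.14 (adjusted p 0.0388 and 0.0414). For 4 genes (Prosalpha5, Prosalpha6, Rpt1 and Rpt3) every aged SF head was above every young head, 12.9% of the class against 9.62% of all genes tested. The count of 5 fell to 1 without young head 2 or young head 5, to 2 without aged SF head 3 and to 3 without aged SF head 4 or aged SF head 5. All-gene counts for these fits are not given here. Muscle marker sums were 1287 to 1709 CPM in aged SF heads, with 6 of 6 called lower than in young heads, as were 5 of 13 photoreceptor, 2 of 6 neuron and 2 of 2 hemocyte markers; their part was not tested.

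Between aged heads, fragmented against normal sleepers, edgeR and DESeq2 called no member. The background by edgeR was 0.22% of genes higher and 0.033% lower, and 3 members and 848 genes had an unadjusted p under 0.05. Prosbeta1, the caspase-like catalytic subunit, had 78.9, 75.9, 82.8, 102 and 104.5 CPM in aged SF heads, against 89.7, 111, 137.5, 148.5 and 128 CPM in aged NSF heads. The 3 lowest libraries were aged SF heads and the groups overlapped. On the log2 scale its change was -0.47 ± 0.18, with an adjusted p of 0.368 by edgeR. The ATPase Rpt6 is listed in the authors' deposited table for this comparison with a log2 fold change of -0.51 and a q-value of 0.0281, while edgeR gave -0.56 ± 0.21 with an adjusted p of 0.385. The class median was -0.12, with 7 of 31 log2 fold changes positive. Over all genes the median was -0.008, with 4457 of 9088 positive.

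The 15 copies were body genes. Their sum was 455 ± 72.5 CPM in aged SF bodies, 289.6 ± 150.2 in aged NSF bodies and 684 ± 110 in young bodies (SD, n = 5 each), and 11.04 ± 3.46, 17.8 ± 4.69 and 12.99 ± 9.96 CPM in the heads of the same groups. By body library, the sums were 377, 424, 468, 570.4 and 435 CPM in the aged SF group, 32.6, 369.5, 314, 313 and 419 CPM in the aged NSF group, and 496, 683, 770, 750 and 721 CPM in the young group. Aged NSF body 1 had the least of any body, and young body 1 the least of the young bodies. Per kb of exon, a copy stood at a median of 26.1% of its constitutive partner in aged SF bodies, 11.7% in aged NSF bodies and 38.1% in young bodies. The lowest ratio was that of the alpha ring copy Prosalpha3T, at 6.85%, 2.999% and 9.23% in those groups, and the highest that of the lid copy Rpn12R, at 68.2%, 34.1% and 101%.

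**Figure D4:**
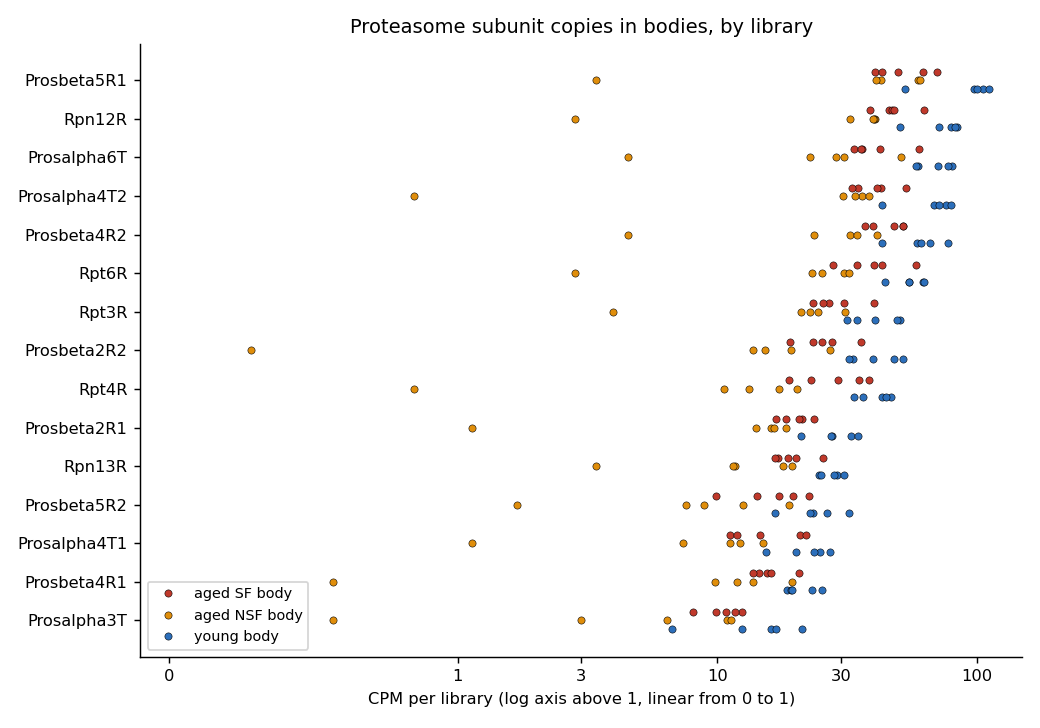
CPM of each of the 15 copies (horizontal axis, log above 1 and linear below) in aged SF, aged NSF and young bodies; each point is 1 library. The lowest point of each copy is aged NSF body 1, and young bodies hold the highest point of each.

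In aged NSF bodies, 13 of 15 copies fell relative to young bodies, with a median log2 fold change of -1.25 against 0.22 for the constitutive genes. For 11 copies, 73.3%, every aged NSF body was below every young body, against 12.8% of all genes tested. The base ATPase copy Rpt4R, at 3L:11941912-11943485 on the plus strand, had 0.850, 13.3, 10.7, 17.3 and 20.3 CPM in aged NSF bodies, against 33.6, 46.9, 43.2, 36.4 and 44.7 CPM in young bodies. The highest aged NSF body was well below the lowest young body. The estimated log2 fold change was -1.71 ± 0.42 (adjusted p = 0.00656, edgeR).

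Rpn13R, a copy of the ubiquitin receptor gene at X:5131898-5132985 on the plus strand, had 3.40, 18.0, 11.8, 11.5 and 19.5 CPM in aged NSF bodies, against 24.7, 29.0, 30.7, 25.0 and 28.2 CPM in young bodies. Its log2 fold change was -1.11 ± 0.30, adjusted p = 0.0101. Prosalpha6T, at 2L:13232039-13233058 on the plus strand, had 4.54, 28.7, 22.8, 30.7 and 51.3 CPM in aged NSF bodies, against 59.2, 58.4, 70.9, 80.6 and 77.5 CPM in young bodies. On the log2 scale its change was -1.33 ± 0.38 (adjusted p = 0.0142, edgeR). Neither gene had any overlap between the groups. The 2 copies not called were Prosbeta4R1 (-0.93 ± 0.43, adjusted p = 0.091) and Prosalpha3T (-1.14 ± 0.47, adjusted p = 0.061).

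The called copies and their constitutive partners had log2 fold changes of opposite sign in all but the Rpn13 pair, in aged NSF over young bodies. All 15 copies had negative and 25 of 32 constitutive genes positive log2 fold changes. Most pairs would therefore differ in sign however copies and constitutive genes were matched. In the alpha ring, Prosalpha4T1 and Prosalpha4T2 had -1.25 and -1.27 against 0.47 for Prosalpha4, and Prosalpha6T had -1.33 against 0.51 for Prosalpha6. In the beta ring, Prosbeta2R1 and Prosbeta2R2 had -1.12 and -1.43 against 0.32 for Prosbeta2, Prosbeta4R2 had -1.17 against 0.59 for Prosbeta4, and Prosbeta5R1 and Prosbeta5R2 had -1.18 and -1.32 against 0.44 for Prosbeta5. In the regulatory particle, Rpt3R had -0.998 against 0.68 for Rpt3, Rpt4R -1.71 against 0.45 for Rpt4, Rpt6R -1.29 against 0.45 for Rpt6, Rpn12R -1.25 against 0.59 for Rpn12, and Rpn13R -1.11 against -0.03 for Rpn13. Prosbeta2 and Rpn13 were not called.

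The copies moved together with the testis markers. Summed testis markers were 8773 to 11661 CPM in aged SF bodies, 960 CPM in aged NSF body 1 and 6940 to 9561 CPM in the other aged NSF bodies, and 9341 CPM in young body 1 and 16652 to 18223 CPM in the other young bodies. In aged NSF over young bodies, 19 of 27 testis markers (70.37%) were called lower. The summed copies came to 4.01% to 5.09% of the summed testis markers in aged SF bodies, 3.40% to 4.51% in aged NSF bodies and 4.10% to 5.31% in young bodies, and the groups overlapped. The part of testis content in the result was not tested. Without aged NSF body 1, all 15 copies were called lower and their median log2 fold change was -0.97. Without aged NSF bodies 1 and 2, 14 were and the median was -0.99, in a fit that called 2567 of all genes lower. Without young body 3 the count of copies called was 7, and without young body 2 it was 9. All-gene counts for the fits without aged NSF body 1, young body 3 or young body 2 are not given here. With only the aged NSF and young bodies in the fit, 5 copies and 8 constitutive genes were called, and the median of the copies was -1.24. That fit called 2172 of all genes higher and 1271 lower. Prosalpha4T2 and Prosbeta5R1 each kept their call in 4 of 15 fits without 1 library.

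**Figure D5:**
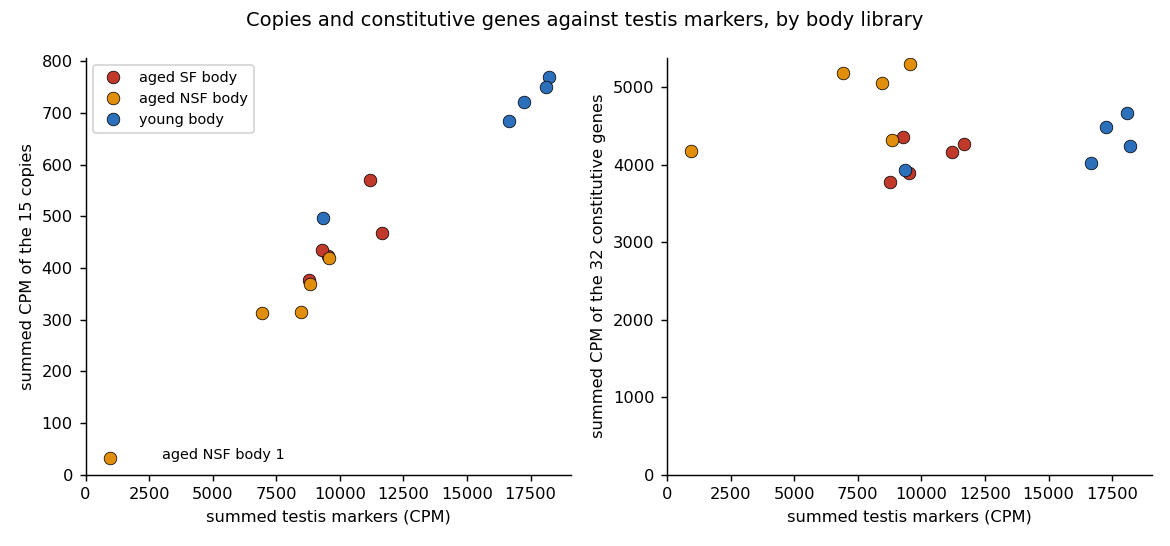
Summed CPM of the 15 copies (left) and of the 32 constitutive genes (right) against summed CPM of 27 testis markers (horizontal axes) in bodies; each point is 1 library, coloured as aged SF, aged NSF or young. The copies lie along one band, with aged NSF body 1 at its lower end, and the constitutive genes do not.

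In aged SF bodies none of the 15 copies was called relative to young bodies by edgeR, and none had an unadjusted p under 0.05 or was called by DESeq2. All 15 log2 fold changes were negative, from -0.82 to -0.39, with a median of -0.50. Over all genes tested, 6154 of 12009 were positive and the median was 0.02. Leaving aged NSF body 1 out of the fit, which shares its estimate of spread over all 3 groups, gave 8 copies called lower, in a fit that called 1762 of all genes lower in place of 391. In aged SF over aged NSF bodies all 15 copies were positive with a median of 0.64, against 6228 of 12009 positive and 0.02 over all genes. Among the copies Rpt4R had the smallest edgeR adjusted p, 0.179, with a log2 fold change of 1.21 ± 0.42. Rpt4R had 23.1, 18.9, 38.4, 35.2 and 29.2 CPM in the aged SF bodies, where only the lowest fell below the highest aged NSF body.

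All 46 members tested were higher in bodies than in heads, averaged over the 3 conditions, in a comparison in which 50.9% of 12318 genes were higher and 28.1% lower. Libraries of both tissues were scaled together here. The all-gene median was 0.34, and the constitutive genes had a median log2 fold change of 0.79, from 0.22 for Rpt3, which lies below the all-gene median, to 1.39 for Prosbeta3. By class the medians were 0.97 for the alpha ring, 0.91 for the beta ring, 0.62 for the base and 1.03 for the lid. With every gene that had at least 1 read kept, the scaling changed so that the all-gene median was 0.08, Rpt3 was at -0.05, Rpt6 at 0.15 and Prosbeta5 at 0.12, and these 3 constitutive genes were not called.

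Prosbeta3, a non-catalytic beta ring subunit, averaged 168 ± 23.2 CPM in the 15 bodies and 64.4 ± 12.5 CPM in the 15 heads (SD), a log2 fold change of 1.39 ± 0.08 (adjusted p = 6.46e-16, edgeR). Prosalpha7, in the alpha ring, averaged 188 ± 23.9 CPM in bodies and 76.8 ± 17.2 CPM in heads, with 1.29 ± 0.10 (adjusted p = 1.96e-13). Among the copies, the catalytic subunit copy Prosbeta5R1 had 4349 reads in bodies and none in any of the 15 heads, which makes it at least 965-fold higher in bodies when set against 3 reads over all heads together. Rpn12R had 3583 reads in bodies and 2 in heads. The copies with the most reads in heads were Rpt4R, with 208 reads over 15 heads and a pooled ratio of body to head of 6.36, and Rpn13R, with 117 reads in 14 heads and a ratio of 8.02. Young head 4 had 30.24 CPM of summed copies, against 5.534 to 11.86 CPM in the other young heads.

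The change from young to aged normal sleepers differed between bodies and heads for 2 members by edgeR's interaction test, both copies and both with few reads in heads. These are 4.348% of the 46 members tested, near the background of 4.34% of genes with a more negative change in bodies (8.83% more positive). Rpt6R had 4, 2, 20, 3 and 3 reads in aged NSF heads, against 0, 0, 0, 1 and 0 reads in young heads, while its level in bodies fell to 2.84, 30.8, 25.2, 23.3 and 32.3 CPM in the aged NSF group, against 44.5, 54.6, 62.3, 62.8 and 55.0 CPM in the young group. Its difference, body minus head, was -5.54 ± 1.12 on the log2 scale (adjusted p = 0.00161). Prosbeta2R2 had 1, 8, 0, 3 and 4 reads in aged NSF heads, against 0, 0, 0, 0 and 2 in young heads, with a difference of -4.03 ± 1.37 (adjusted p = 0.0484). With so few reads in heads the size of both differences depends on the prior count, and Prosbeta2R2 lost its call in 17 of 30 fits without 1 library.

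By edgeR no constitutive gene was called in that interaction, and none of the 46 members in the 2 others. DESeq2 called 6 members in the aged NSF interaction, among them the lid genes Rpn6 (-0.51, adjusted p = 0.0286) and Rpn8 (-0.66, adjusted p = 0.0288). Over all genes it called 746 more positive and 1264 more negative in bodies. For aged SF over young the edgeR background was 5.24% more positive and 1.62% more negative in bodies. At an unadjusted p under 0.05 there were 7 members and 2559 genes. DESeq2 called 7 members, with 396 of all genes more positive and 554 more negative. For aged SF over aged NSF the edgeR background was 0% in both directions, and 6 members and 1259 genes had an unadjusted p under 0.05. DESeq2 called no member, with 91 of all genes more positive and 45 more negative. These tests turn on how bodies and heads are scaled to each other. Under the size factors of DESeq2, the all-gene median of the aged NSF interaction was -0.12 in place of 0.09, with 534 genes more positive and 833 more negative in place of 1088 and 534. Rpn8 was then called lower at -0.66, as was the copy Rpt4R at -2.18, in tests against 0 and not against that median. For aged SF over young the median became -0.06 in place of 0.15, with 250 genes more positive and 343 more negative in place of 645 and 200. There Prosalpha4, Prosalpha5, Prosalpha6, Prosbeta5 and Rpt1 were then called lower, from -0.77 to -0.61.

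Single libraries moved these counts too, and the all-gene counts of these fits are not given here. In the aged NSF over young interaction, 1 member was called without any 1 of young heads 1, 2 and 3, aged SF heads 1, 3 and 4, aged NSF heads 2 and 5, young bodies 3 and 4, aged SF bodies 2, 3 and 5, or aged NSF bodies 2 and 4. There were 4 to 6 without young body 2 or 5, aged SF body 1 or 4, or aged NSF body 3. In the aged SF over young interaction, 1 was called without any 1 of young heads 1, 3 and 4, aged SF head 3, aged NSF head 5 or aged NSF body 1, and 3 to 6 without young body 2, 3 or 5, aged SF body 1 or 4, or aged NSF body 3.

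Genes that act with the proteasome were read from 4 lists, beside backgrounds of 21.7% of genes higher and 19.4% lower in aged NSF over young bodies, 11.1% and 3.26% in aged SF over young bodies, 11.4% and 11.5% in aged NSF over young heads, and 13% and 12.2% in aged SF over young heads. The first holds the transcription factor gene cnc, its inhibitor Keap1 and its partner maf-S. In aged NSF over young bodies all 3 rose, cnc by 0.82 ± 0.13 (adjusted p = 0.000285), Keap1 by 0.79 ± 0.29 (adjusted p = 0.0367) and maf-S by 0.61 ± 0.20 (adjusted p = 0.0251), all by edgeR. Of 15 fits without 1 library, cnc kept its call in 15, maf-S in 12 and Keap1 in 11. The level of cnc was 326 ± 24.9 CPM in aged SF bodies, 362 ± 33.8 CPM in aged NSF bodies and 205 ± 32.5 CPM in young bodies. In aged SF over young bodies cnc rose by 0.67 (adjusted p = 0.00318) and Keap1 by 0.95 (adjusted p = 0.0334), and Keap1 kept that call in 9 of 15 fits without 1 library. In heads cnc rose in the aged NSF group, by 0.39 (adjusted p = 0.0491), a call kept in 4 of 15 fits without 1 library with adjusted p up to 0.208. In aged SF heads maf-S fell by 0.59 (adjusted p = 0.0197), a call kept in 11 of 15 such fits.

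Of 11 genes for ubiquitin, its activating enzyme and conjugating enzymes, 5 rose and 1 fell in aged NSF over young bodies. The ubiquitin fusion genes RpS27A and RpL40 rose by 0.80 and 0.78 (adjusted p 0.000205 and 0.000861) and the conjugating enzyme gene Ubc6 by 0.58 (adjusted p = 0.00985), while the conjugating enzyme gene vih fell by 0.66 (adjusted p = 0.0329). In aged SF over young bodies RpS27A (0.39) and Ubc6 (0.51) rose, with adjusted p of 0.0393 and 0.04, but these calls were kept in 2 and 4 of 15 fits without 1 library. In heads the activating enzyme gene Uba1 rose in both aged groups relative to young heads, by 0.44 in the SF and 0.58 in the NSF group (adjusted p 0.00726 and 0.000672). In aged SF heads the polyubiquitin gene Ubi-p63E rose as well, by 0.93, and Ubc2 and eff by 0.71 and 0.66 (adjusted p 0.000198, 0.0187 and 0.0292), which makes 4 of 11 called. In aged NSF heads 1 of 11 was called, Ubi-p63E had 0.45 (adjusted p = 0.0543), and aged SF over aged NSF heads gave Ubi-p63E 0.47 (adjusted p = 0.324).

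Among 4 genes for assembly factors and regulators, the proteasome-associated deubiquitinase gene Uch-L5 and PI31 fell in aged NSF over young bodies, by 0.97 and 0.62 (adjusted p 0.00898 and 0.0142, edgeR). Without aged NSF bodies 1 and 2 these were -0.75 and -0.40 (adjusted p 0.00189 and 0.0446), and vih was at -0.54 (adjusted p = 0.00906). None of the 4 was called in aged SF over young bodies. In heads Pomp, the assembly factor of the core particle, rose in the aged SF group by 0.65 (adjusted p = 0.00974), and none was called in the aged NSF group. Of 7 genes for substrate shuttles and the TER94 segregase with its cofactors, the shuttle Rad23 rose in aged bodies, by 0.39 in the SF and 0.54 in the NSF group (adjusted p 0.0373 and 0.00325), the first of these kept in 5 of 15 fits without 1 library, and the cofactor Npl4 fell in aged SF bodies by 0.43 (adjusted p = 0.0243). None of the 7 was called in heads. No gene of the 4 lists was called by edgeR between fragmented and normal sleepers in either tissue. In the authors' deposited table for aged SF over aged NSF heads, eff is listed with a log2 fold change of 0.55 (q-value 0.00168) and Ubi-p63E with 0.45 (q-value 0.00573).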

How the data were processed

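Per the series design text, the authors trimmed reads with Trimmomatic, mapped them to dm6 with STAR, removed non-primary alignments and those with a mapping quality under 8, and counted reads on exons with HTSeq-count; versions and the annotation are not given in the sources used here. The deposited values are counts per gene and library. The authors' deposited table also holds DESeq2 q-values and log2 fold changes; its aged SF over aged NSF head columns follow the gene names and were used for those listed, and its other comparisons were not used here.

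From the counts, TMM-scaled CPM were computed within each tissue (over all 30 libraries for body over head). Tests were edgeR 4.0.16 quasi-likelihood tests in R 4.3.3, with genes filtered by filterByExpr, fitted to the 15 libraries of a tissue or to all 30, with Benjamini-Hochberg adjustment over all genes tested and a threshold of 0.05; they were tested on simulated counts. Exon lengths and coordinates are from Ensembl 115, and 17253 of 17559 genes matched. Alternatives were DESeq2 1.42.0, its size factors, other filters (none, or at least 5 CPM in at least 5 libraries), only the 2 groups compared, replicate blocks and leaving out libraries. Marker lists hold genes known for a tissue, and all of a list found in the table were summed. Members are named with full values where they were among the 3 with the smallest adjusted p in each direction of a within-tissue comparison (the smallest p where none was called), where a copy or its partner was called in bodies, where the change between tissues was among the 2 largest called of the constitutive genes or copies, or where an interaction was called; list genes are named where among the 3 with the smallest adjusted p. Others are named by level or count. The members, lists and tests were chosen with earlier results of these data known.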

Additional observations from a re-analysis of the deposited data

Results flagged for a closer look

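In 10 of 161 groups of 5 libraries with a mean of at least 5 CPM, 1 library lay farther from the rest than Dixon's criterion allows; chance gives about 1 group in 20. In aged NSF body 1 the summed copies had 32.6 CPM, against 313.1 to 418.9 CPM in the other aged NSF bodies. The same library was low for Prosalpha4T2, at 0.8504 CPM against 30.4 to 38.45, for Prosbeta2R1, at 1.134 CPM against 14.15 to 18.41, and for Rpn12R, at 2.835 CPM against 32.41 to 40.68. Its summed testis markers, 960 CPM, were also the lowest of any body, and their part was not tested. In young body 1, Prosbeta5R1 had 53.15 CPM, against 97.77 to 111.7 CPM in the other young bodies. Young head 4 was high for the summed copies, at 30.24 CPM against 5.534 to 11.86, for Rpt4R, at 15.62 CPM against 2.581 to 4.612, and for the ubiquitin receptor gene Rpn13, at 177.4 CPM against 106.3 to 120.2. In aged SF body 5 Prosbeta3 had 161.9 CPM, against 132.8 to 140.2 CPM in the other aged SF bodies, and in aged SF head 1 Prosbeta4 had 55.02 CPM, against 77.71 to 86.71 CPM in the other aged SF heads.

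The effect of age in normal sleepers differed between body and head for Rpt6R, by -5.537 (body minus head, log2; edgeR adjusted p = 0.00161), and for Prosbeta2R2, by -4.026 (adjusted p = 0.0484). Both have few reads in heads, and 2 of 46 members is near the share of all genes called in that direction, 4.34%.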

How the results depend on the processing

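Counts of members called that moved by more than 1.5 times were as follows. In aged SF over young heads the count was 3 with no filter on low counts, against 5. In aged NSF over young bodies it was 13 with only the 2 groups in the fit (8 constitutive, 5 copies), against 22 (9 and 13). In aged SF over young bodies it was 1 with DESeq2, 7 with only the 2 groups and 7 without aged NSF bodies 1 and 2, against 0. In aged SF over aged NSF bodies it was 7 with DESeq2 and 4 without those 2 bodies, against 0. Over all genes, DESeq2 called 202 higher and 438 lower, and the fit without those 2 bodies 105 higher and 100 lower. In the interaction of aged NSF over young with tissue it was 4 with DESeq2 size factors and 6 with DESeq2, against 2, and in that of aged SF over young it was 5, 7 and, without those 2 bodies, 1, against 0. Class sums were judged by another rule, a shift of at least the SD between the libraries of the group. By that rule only the summed alpha ring in aged SF heads moved, at 567 CPM on raw library totals against 548 CPM. Leaving out 1 library gave counts of members called of 3 to 12 in aged NSF over young heads, 1 to 6 in aged SF over young heads, 15 to 24 in aged NSF over young bodies, 0 to 8 in aged SF over young bodies and 0 to 4 in aged SF over aged NSF bodies. It gave 1 to 6 and 0 to 6 in the aged NSF and aged SF interactions with young, 46 for body over head and 0 in aged SF over aged NSF heads and its interaction. All-gene counts for these fits are not given here. Rpn13 in aged NSF over young bodies, -0.03, was 0.0740 without aged NSF bodies 1 and 2 and -0.11 to 0.0401 with 1 library left out. The cause was not tested. Within a tissue the replicate number was the block (23 calls in aged NSF over young bodies). Over both tissues the block was head and body of the same condition and number (3 calls in the aged NSF interaction). With these blocks no count moved by over 1.5 times. Body and head of the same number had a median correlation of deviations of 0.158 over 15 pairs, 11 of them over 0.1. Over 60 pairs of unlike number the median was -0.05, with 8 over 0.1. That is a hint of pairing from the data, but not every pair was over 0.1 and the labels do not give it, so the block was kept as an alternative. Other settings kept 367 single-gene results on their side of the threshold, with 29 weaker, 3 stronger and 1 reversed; leaving out 1 library kept 857, with 127 weaker, 2 stronger and 4 reversed. Depth limits the copies in heads, where 13 of 15 were too low to test within the tissue.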
